A study of Mus musculus with 4 samples.

Results

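The genes described here make the machinery of DNA replication and of mitosis, measured in the inferior vena cava of mice after surgery to obstruct the vein. A list of 45 genes was taken, 13 with a part in S phase (Mcm2 to Mcm7, Rrm1, Rrm2, Tyms, Pcna, Ccne1, Ccne2 and E2f1) and 32 with a part in mitosis. A gene counted as measured where a probe set, the group of array probes read as 1 value, carried its symbol and no other, and the brightest such probe set was used. This gave 39 of the 45 genes among 18820 genes on the array, 11 of the 13 S phase genes and 28 of the 32 mitotic genes. Tyms, Ccne2, Kif20a, Nusap1 and Foxm1 are carried only by probe sets with several symbols, and Ccnb1 is on no probe set listed by name, so these 6 have no values here.

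The study crossed genotype with surgery. Wild-type mice (C57BLK6 in the labels) and mice labelled CD39 knockout (Cd39-/-, called Cd39-null below) carry no other allele and received no agent that the labels name, are all on the C57BL/6J background after at least 8 generations of backcrossing, and were 8 to 10 weeks old. Their vein was either ligated for 48 h below the kidneys, completely or partially, or dissected free without being tied (sham). Each of the 4 combinations was read on 1 array from the pooled RNA of 4 mice, so no group has a replicate. The sex of the animals in a pool, the share of partial ligations and the presence of clot in the RNA are not stated in the labels. Differences between a pair of arrays are therefore given with no p-value and no error, and a gene is counted as higher or lower where it lies at least 2-fold (1 on the log2 scale) apart.

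The gene that was knocked out, Entpd1, encodes CD39, a membrane enzyme that breaks down extracellular ATP and ADP. Its log2 values were 7.11 on the wild-type sham array, 6.17 on the wild-type ligated array, 4.16 on the Cd39-null sham array. On the array whose label reads Cd39-null and ligated the value was 6.14. This last value goes against the label, since it is as high as that of the wild-type ligated array. The array is therefore called the labelled Cd39-null ligated array, and a ligation difference "in Cd39-null" or a "genotype" below is by label only. Every difference that uses this array depends on a label its own targeted gene does not bear out. Where the probes lie relative to the deleted part of the gene is not given in the sources used here. Markers of the vein wall were present on every array: the 12 endothelial markers lay above background on all 4 arrays and 9 of the 10 smooth muscle markers or more on each. Background was taken on each array as the 95th percentile of 1006 probe sets for olfactory receptors. It lay at 2.94 log2 on the wild-type and 2.97 on the Cd39-null sham array, and at 2.66 and 2.68 on their ligated counterparts. In a piece of tissue, a change in the number of cycling cells and a change in the RNA made per cell cannot be told apart.

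A dividing cell licenses its replication origins in G1 by loading the MCM helicase, copies its DNA in S phase with nucleotides supplied by ribonucleotide reductase and a polymerase held by the PCNA clamp, and then condenses and separates its chromosomes in mitosis. Genes of the first group are classically switched on by E2F factors near the G1/S boundary. Genes of the second are held off in resting cells by the DREAM complex and switched on in G2 and mitosis by MuvB with B-Myb and FOXM1, through a short promoter element called the CHR (cell cycle genes homology region). The wall of a healthy adult vein is a largely resting tissue, and the first days after stasis bring in leukocytes and start the remodelling of wall and thrombus.

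The promoters of the genes carry these elements in different shares. RefSeq promoters (GRCm38.p6, 250 bases before to 50 bases after the annotated start) were held for 37 of the 45 genes; Mcm4, Ccne2, Tpx2, Ccna2, Kif20a, Aurkb, Foxm1 and Pbk were not matched. A CHR match (TTTGAA or TTCGAA, on either strand) was found for 20 of 26 mitotic genes (76.9%), for 2 of 11 S phase genes (18.2%) and for 21.7% of the 27025 genes held. A gene with several promoters counted once, where any of them had a match. E2F motifs were searched on either strand as TTCCCGC and as 3 variants, of which the first is TTGGCGC, the next is TTCGCGC and the last is TTGCCGC. Such a match was found for 4 mitotic genes (15.4%), for 6 S phase genes (54.5%) and for 10.9% of all genes. A match to CCAAT on either strand, which can share bases with the other motifs, was common to both groups, with 76.9% of the mitotic and 72.7% of the S phase genes against 41.1% of all genes. Of the CHR matches in mitotic promoters 22 of 32 (68.8%) lay within 50 bases of the start, against 25.2% of the CHR matches in all genes. These matches are counted over every promoter held, so a site in overlapping promoters of a gene can count more than once. The measured mitotic genes without a CHR match in this window were Birc5, Cenpe, Melk and Nuf2, and the S phase genes with an E2F match were Mcm3, Mcm5, Mcm6, Mcm7, Rrm1 and Rrm2. A match is a description of the letters and not a bound site.

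The 6 promoters below show these elements in genes that later parts of the text turn on. Bub1 and Mki67 are among the genes that differed far more with ligation in wild type than in Cd39-null, Prc1 and Cdk1 were high in both, and Mcm3 and Mcm5 stand for the helicase. Each is written from 5′ to 3′ along the gene's own strand, with CHR and E2F matches in capitals. The Bub1 promoter (chr2:127831810-127832109, minus strand) has its CHR match at bases 15 to 20 after the start. The Mki67 promoter (chr7:135716330-135716629, minus strand) has CHR matches at -116 to -111 and -98 to -93 and an E2F match at -67 to -61. The Prc1 promoter (chr7:80294201-80294500, plus strand) has a CHR match that spans the start, from -5 to 1, and the Cdk1 promoter (chr10:69352863-69353162, minus strand) has CHR matches at -71 to -66 and -15 to -10 with E2F matches further upstream. The Mcm3 promoter (chr1:20820263-20820562, minus strand) has E2F matches at 20 to 26 and, overlapping on both strands, at 40 to 49, and the Mcm5 promoter (chr8:75109259-75109558, plus strand) has them between -164 and -143.
Bub1: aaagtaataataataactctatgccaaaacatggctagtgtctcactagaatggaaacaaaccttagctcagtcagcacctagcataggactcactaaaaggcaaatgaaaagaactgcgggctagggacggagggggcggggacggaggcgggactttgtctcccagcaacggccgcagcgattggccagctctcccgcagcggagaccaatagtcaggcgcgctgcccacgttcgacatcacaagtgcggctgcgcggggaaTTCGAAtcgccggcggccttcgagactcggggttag
Mki67: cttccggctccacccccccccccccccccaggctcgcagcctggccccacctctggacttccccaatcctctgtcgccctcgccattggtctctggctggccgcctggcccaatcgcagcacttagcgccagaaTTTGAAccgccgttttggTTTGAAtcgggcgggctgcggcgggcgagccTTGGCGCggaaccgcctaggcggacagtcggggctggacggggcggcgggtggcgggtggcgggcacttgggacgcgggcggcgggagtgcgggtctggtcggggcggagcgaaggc
Prc1: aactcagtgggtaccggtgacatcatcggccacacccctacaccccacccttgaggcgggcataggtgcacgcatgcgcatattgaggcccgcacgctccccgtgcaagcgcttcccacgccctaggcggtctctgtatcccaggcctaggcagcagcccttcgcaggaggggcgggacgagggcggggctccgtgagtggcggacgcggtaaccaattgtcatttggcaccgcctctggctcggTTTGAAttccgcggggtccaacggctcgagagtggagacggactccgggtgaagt
Cdk1: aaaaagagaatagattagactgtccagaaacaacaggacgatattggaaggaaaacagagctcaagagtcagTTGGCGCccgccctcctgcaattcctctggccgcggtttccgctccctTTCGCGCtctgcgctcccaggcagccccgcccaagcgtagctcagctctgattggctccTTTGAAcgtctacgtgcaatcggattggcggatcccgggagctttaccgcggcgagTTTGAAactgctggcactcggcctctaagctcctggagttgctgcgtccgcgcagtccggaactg
Mcm3: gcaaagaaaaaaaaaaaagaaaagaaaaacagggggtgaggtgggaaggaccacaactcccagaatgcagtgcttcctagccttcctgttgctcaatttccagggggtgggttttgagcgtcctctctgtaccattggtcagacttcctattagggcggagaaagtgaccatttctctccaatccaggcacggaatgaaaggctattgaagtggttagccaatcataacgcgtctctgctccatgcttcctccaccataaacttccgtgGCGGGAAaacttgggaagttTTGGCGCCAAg
Mcm5: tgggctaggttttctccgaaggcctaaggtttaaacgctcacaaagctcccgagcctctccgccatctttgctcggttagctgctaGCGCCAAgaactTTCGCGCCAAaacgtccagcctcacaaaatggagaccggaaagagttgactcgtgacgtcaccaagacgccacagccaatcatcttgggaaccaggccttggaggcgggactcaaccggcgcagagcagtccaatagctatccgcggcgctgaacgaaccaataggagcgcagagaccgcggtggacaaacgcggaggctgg

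Ligation went with higher values of nearly every gene of both groups, and in wild-type veins the mitotic genes stood further apart than the S phase genes. Between the wild-type arrays, 26 of 28 mitotic genes and 5 of 11 S phase genes were at least 2-fold higher after ligation, against 6.60% of the 14115 genes that passed a filter on low values. The median log2 difference was 1.76 for the mitotic genes (range 0.59 to 2.87), 0.89 for the S phase genes (range 0.26 to 1.52) and -0.01 for all genes. Between the arrays labelled Cd39-null, 9 of 28 mitotic and 4 of 11 S phase genes were at least 2-fold higher after ligation, against 10.9% of all genes. There the medians were 0.85 for the mitotic genes (range -0.16 to 2.06), 0.73 for the S phase genes (range 0.19 to 2.23) and 0.03 for all genes. The 2 groups thus lay 0.87 apart in wild type and 0.12 apart in Cd39-null, the mitotic genes higher in each. Without the regulators Ccne1 and E2f1 the order in Cd39-null turned, to S phase genes higher by 0.15. All 39 measured genes passed the filter, which used the mean over the 4 arrays.

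**Figure D1:**
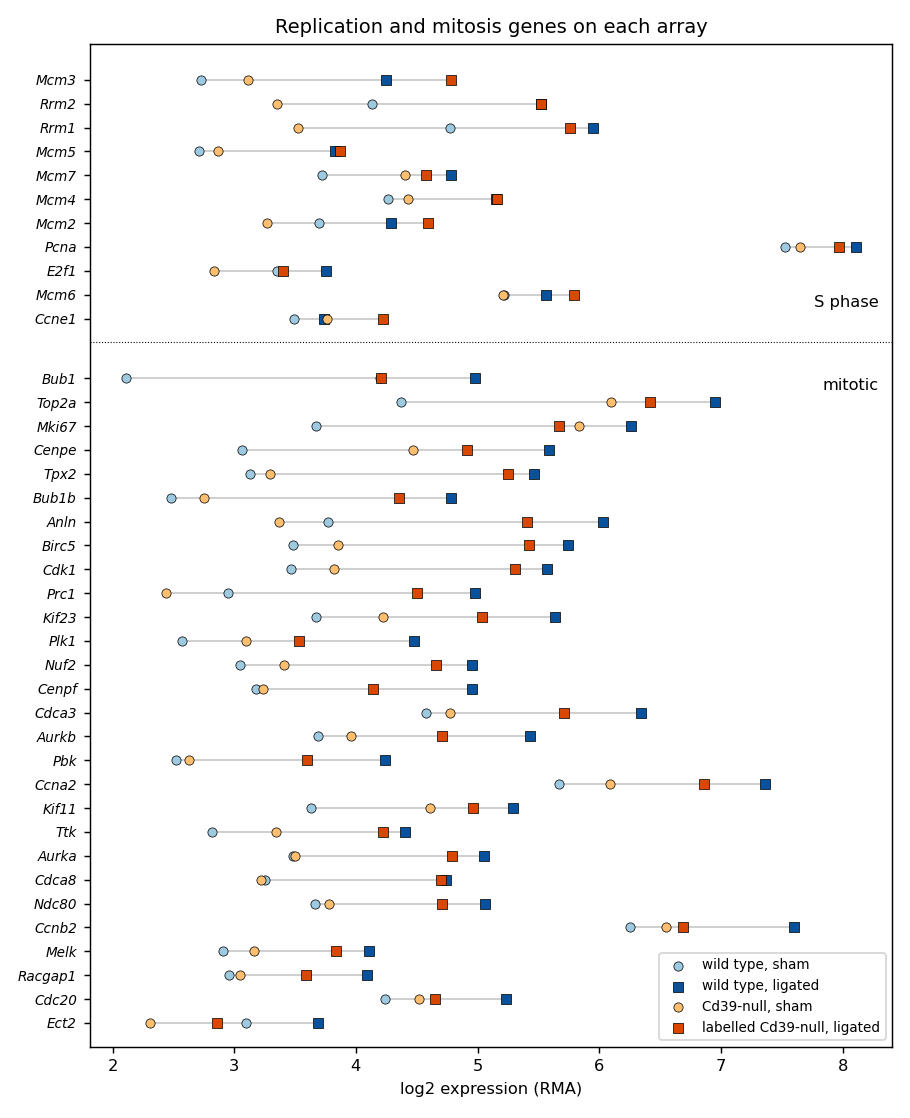
Log2 expression (RMA, horizontal axis) of the 39 measured genes on each of the 4 arrays; circles are sham and squares ligated veins, blue wild type and orange Cd39-null, and the dotted line parts S phase from mitotic genes. The wild-type ligated array (dark blue squares) holds the highest value of all 28 mitotic genes and of 5 of the 11 S phase genes. The share of all genes that are highest on this array was not computed.

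Passing 2-fold in both ligation comparisons were 3 of 11 in S phase (Mcm3, Rrm1, Rrm2) and 9 of 28 in mitosis (Prc1, Anln, Tpx2, Bub1b, Birc5, Cdk1, Cdca8, Aurka and Nuf2), against 3.63% of all genes. In wild type alone the count was 2 for S phase and 17 for mitosis, against 2.98% of all genes, and in Cd39-null alone it was 1 (Mcm2) and 0, against 7.26%. Both ligated arrays lay above both sham arrays for 10 of 11 S phase and 26 of 28 mitotic genes, against 28.0% of all genes; the exceptions were Ccne1, Mki67 and Ect2. With the arrays quantile normalised again the counts were 9 and 23. Within the S phase genes the wild-type and Cd39-null ligation differences had a Pearson r of 0.67 (11 genes), and within the mitotic genes an r of 0.13 (28 genes); the comparisons share no array, the genes are not independent of each other, and these values describe the genes only.

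**Figure D2:**
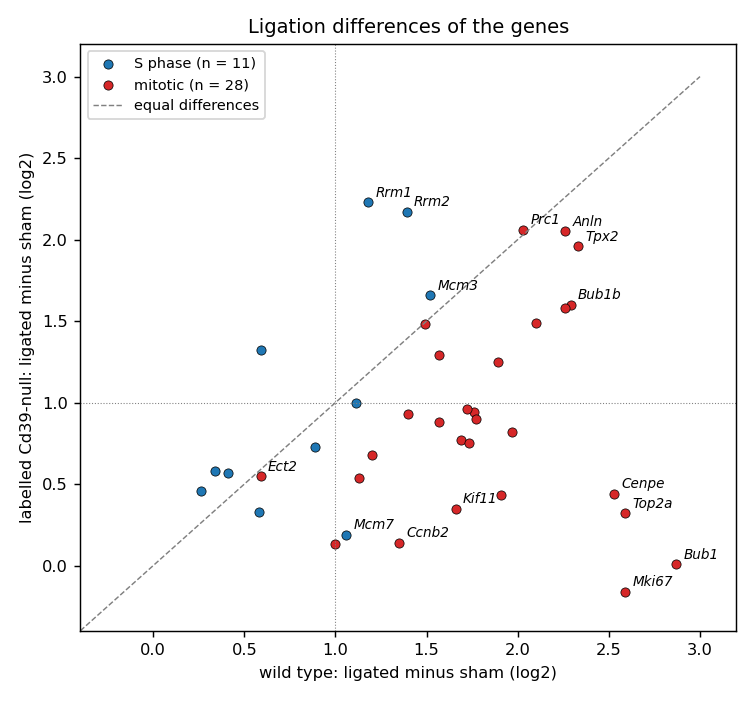
Each point is a gene, placed by its ligated minus sham log2 difference in wild type (horizontal) and in the arrays labelled Cd39-null (vertical); dotted lines mark 2-fold and the dashed line equal differences. Of 28 mitotic genes 27 lie below the dashed line, with Bub1 (whose wild-type sham value is under background), Mki67, Top2a and Cenpe far from it, whereas 4 of 11 S phase genes do. The share of all genes below that line was not computed.

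The S phase genes begin with the MCM helicase, a ring of 6 proteins loaded at origins and activated to unwind DNA. As deposited, all 6 subunits were higher on the ligated array in each genotype. For Mcm7 in Cd39-null this did not hold after renormalisation, with a difference of -0.06 (quantile) and 0.0 (loess). In what follows, values on the 4 arrays are log2 levels in a fixed order: the wild-type sham array, then the wild-type ligated array, then the Cd39-null sham array, and last the labelled Cd39-null ligated array. Levels are compared between arrays for a gene and never between genes. Mcm3 had values of 2.73, 4.25, 3.11 and 4.78. Both ligated values stand above both sham values, by 1.52 in wild type and 1.66 in Cd39-null, and because the wild-type sham value is under background the wild-type fold is at least 2.48. Mcm5 had values of 2.71, 3.83, 2.87 and 3.87, with differences of 1.11 and 1.00, the second just under 2-fold; both sham values are under background, so the folds are at least 1.85 and 1.86. Mcm2, at 3.70, 4.29, 3.27 and 4.59, passed 2-fold only in Cd39-null (0.59 in wild type and 1.32 in Cd39-null). Mcm7, at 3.72, 4.78, 4.40 and 4.58, did so only in wild type (1.06 and 0.19), since its Cd39-null sham value was already 0.68 above the wild-type one. Mcm4 and Mcm6 differed by less than 2-fold in both, with 0.89 and 0.73 for Mcm4 and 0.34 and 0.58 for Mcm6.

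Ribonucleotide reductase makes the deoxynucleotides for replication; Rrm1 encodes its large catalytic subunit and Rrm2 the small subunit whose level follows the cell cycle. Rrm1 had values of 4.77, 5.95, 3.52 and 5.76, and Rrm2 of 4.13, 5.52, 3.35 and 5.52. The ligated arrays lay close together for both genes, and the Cd39-null sham array was the lowest. The ligation difference was thus larger in Cd39-null, 2.23 against 1.18 for Rrm1 and 2.17 against 1.39 for Rrm2, and Rrm1 was the S phase gene with the largest Cd39-null ligation difference. Pcna, which encodes the sliding clamp of the polymerases, had values of 7.53, 8.11, 7.65 and 7.97, with differences of 0.58 and 0.33. Its pair of probe sets carries identical values and counts as 1 measurement.

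The regulators of the G1/S boundary differed little. Ccne1, the cyclin partner of CDK2, had values of 3.49, 3.74, 3.76 and 4.22, and E2f1, a transcription factor of S phase genes, had 3.35, 3.75, 2.83 and 3.40. Their ligation differences were 0.26 and 0.46 for Ccne1 and 0.41 and 0.57 for E2f1. None reached 2-fold, and the Cd39-null sham value of E2f1 is under background.

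Among the mitotic genes, the proliferation marker Mki67, whose protein coats mitotic chromosomes, and Top2a, the topoisomerase that untangles sister DNA, were far higher on the Cd39-null than on the wild-type sham array. Mki67 had values of 3.67, 6.26, 5.83 and 5.67. The wild-type sham array stood alone at the low end: the wild-type ligated array was 6.01-fold higher, and the Cd39-null sham array was 4.47-fold higher. Between the Cd39-null arrays Mki67 differed by -0.16, the only mitotic gene below 0 in that comparison; with the arrays quantile normalised again or loess normalised, Bub1, Ccnb2 and Cdc20 lay below 0 as well (-0.17 to -0.08). Top2a had values of 4.37, 6.95, 6.10 and 6.42, which is 6.00-fold higher after ligation in wild type and 1.25-fold in Cd39-null. For both genes the labelled Cd39-null ligated array lay more than 2-fold above the wild-type sham array, by 2.00 for Mki67 and 2.05 for Top2a.

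Genes of the spindle checkpoint, which holds cells in metaphase until all chromosomes are attached, divided in their pattern. Bub1, a checkpoint kinase, had values of 2.11, 4.98, 4.20 and 4.21. Its wild-type sham value is under background, so it was at least 4.11-fold higher after ligation in wild type, while the Cd39-null arrays differed by 0.01. Bub1b, which encodes the checkpoint protein BUBR1, had 2.48, 4.78, 2.75 and 4.35. Here both sham arrays were low and under background, and the gene was at least 3.57-fold higher after ligation in wild type and at least 2.61-fold higher in Cd39-null. Ttk, the kinase that starts checkpoint signalling, had 2.82, 4.40, 3.34 and 4.22, at least 2.75-fold higher in wild type and 1.84-fold higher in Cd39-null. Cdc20, the activator of the anaphase-promoting complex that the checkpoint restrains, had 4.24, 5.23, 4.52 and 4.65, and its wild-type difference of 1.00 fell just short of 2-fold.

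The mitotic cyclins and their kinase were at least 2-fold higher after ligation in wild type and differed by unequal amounts in Cd39-null. Cdk1, the kinase that drives entry into mitosis, had values of 3.47, 5.57, 3.82 and 5.31, or 4.29-fold and 2.82-fold higher after ligation. Ccna2, a cyclin of S phase and G2, had 5.67, 7.36, 6.09 and 6.86, with differences of 1.69 and 0.77. Ccnb2, a B-type cyclin, had 6.25, 7.60, 6.55 and 6.69, with differences of 1.35 and 0.14. Thus the kinase passed 2-fold in both comparisons and these cyclins only in wild type. Cdca3, a trigger of mitotic entry, had differences of 1.76 and 0.94.

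The chromosomal passenger complex corrects faulty attachments and later guides cleavage. Birc5, which encodes its subunit survivin, had values of 3.48, 5.74, 3.85 and 5.42, and Cdca8, which encodes borealin, had 3.25, 4.74, 3.22 and 4.70. Both passed 2-fold in both genotypes, and the Cdca8 differences of 1.49 and 1.48 were nearly equal. Aurkb, the kinase of the same complex, had 3.69, 5.43, 3.96 and 4.71, with differences of 1.73 and 0.75, so it passed 2-fold in wild type only.

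The 4 measured kinetochore genes of the list, which join chromosomes to microtubules, passed 2-fold in wild type. Cenpe, a kinetochore motor, had values of 3.06, 5.59, 4.47 and 4.91, the wild-type sham array again alone at the low end, with differences of 2.53 and 0.44. Cenpf had 3.18, 4.95, 3.24 and 4.14, with differences of 1.77 and 0.90. Ndc80 and Nuf2, partners in the complex that grips the microtubule, had ligation differences of 1.40 and 1.89 in wild type and 0.93 and 1.25 in Cd39-null. Of these 4 genes only Nuf2 passed 2-fold in Cd39-null.

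The spindle genes Tpx2, an activator of Aurora A, and Kif11, the motor that pushes the poles apart, behaved unlike each other. Tpx2 had values of 3.13, 5.46, 3.29 and 5.25, 5.03-fold and 3.89-fold higher after ligation, and its ligated arrays lay above both sham arrays by a wide margin. Kif11 had 3.63, 5.29, 4.61 and 4.96, with differences of 1.66 and 0.35, and its Cd39-null sham value lay 0.98 above the wild-type one, just under 2-fold.

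Genes of the spindle midzone and of cytokinesis held some of the most even and the weakest ligation differences. Prc1, which bundles the microtubules of the midzone, had values of 2.95, 4.98, 2.44 and 4.50, with differences of 2.03 in wild type and 2.06 in Cd39-null. The Cd39-null sham value is under background, which makes the fold at least 2.89 there and leaves unsettled which difference is the larger. Anln, which encodes anillin, a scaffold of the contractile ring, had 3.77, 6.03, 3.37 and 5.41, or 4.79-fold and 4.13-fold higher. Kif23, a motor of the centralspindlin complex, had 3.67, 5.64, 4.22 and 5.04, and its partner Racgap1 had 2.96, 4.09, 3.05 and 3.59. Both passed 2-fold in wild type only (1.97 and 0.82 for Kif23, 1.13 and 0.54 for Racgap1). Ect2, the exchange factor that activates RhoA at the midzone, had 3.10, 3.69, 2.31 and 2.86, the smallest wild-type difference of the mitotic genes at 0.59.

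Of the mitotic kinases, Aurka, which matures the spindle poles, had values of 3.48, 5.05, 3.50 and 4.79 and was higher by 1.57 and 1.29. Plk1, a kinase of mitotic entry and spindle assembly, had 2.57, 4.48, 3.10 and 3.53. Its wild-type sham value is under background, which makes the wild-type fold at least 2.90, and its Cd39-null difference was 0.43. Melk and Pbk, kinases found in dividing cells, were higher by 1.20 and 1.72 in wild type and by 0.68 and 0.96 in Cd39-null, with the wild-type sham value of each under background. Values at or under background occurred on sham arrays only: 2 S phase and 6 mitotic genes on the wild-type sham array, 2 and 4 on the Cd39-null sham array, and none on the ligated arrays. With such values set to background, the mitotic medians were 1.74 in wild type and 0.79 in Cd39-null. The background level was itself higher on the sham arrays (2.94 and 2.97) than on the ligated arrays (2.66 and 2.68), so this split depends in part on the level used. The Ect2 value of 2.86 on the labelled Cd39-null ligated array, for example, lies under both sham levels.

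**Figure D3:**
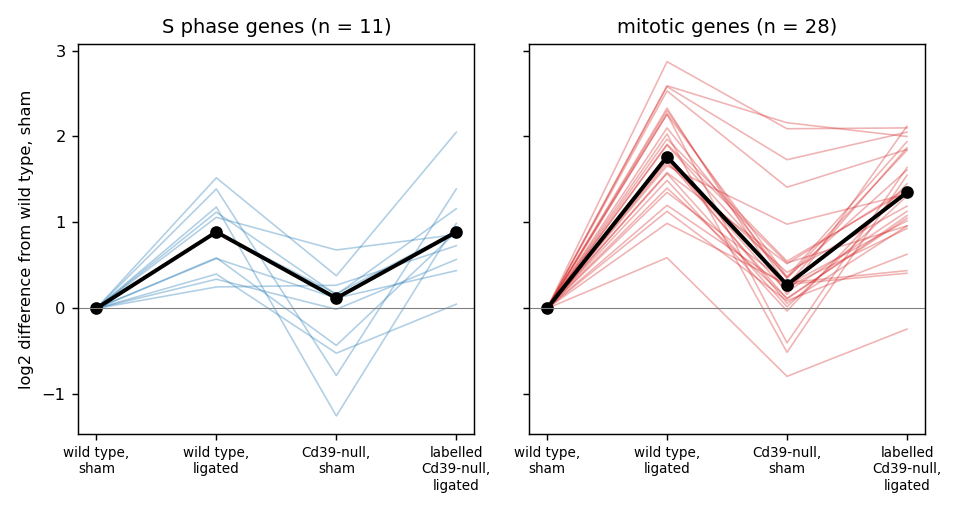
Log2 difference of each gene from its wild-type sham value (vertical axis) on the 4 arrays, for 11 S phase genes (left) and 28 mitotic genes (right); thin lines are genes and black points are medians. The S phase median is 0.89 on both ligated arrays, and the mitotic median is 1.76 on the wild-type ligated and 1.35 on the labelled Cd39-null ligated array.

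Part of the smaller Cd39-null ligation difference of the mitotic genes lay in the sham arrays. Against wild-type sham, the Cd39-null sham array was at least 2-fold higher for 4 of 28 mitotic genes, Mki67 (2.16), Top2a (1.73), Cenpe (1.41) and Bub1 (2.09, or at least 2.39-fold, its wild-type sham value being under background), and for 0 of 11 S phase genes, against 2.95% of all genes. At least 2-fold lower were 0 mitotic genes and 1 S phase gene, Rrm1 (-1.24), against 3.54% of all genes. The mitotic median was 0.28, with 24 of 28 genes above 0, and the S phase median 0.11, with 6 of 11 above 0. The median over all genes was -0.07, with 6107 of 14115 above 0. The mitotic genes below 0 were Ect2 (-0.79), Prc1 (-0.50), Anln (-0.41) and Cdca8 (-0.03). The Cd39-null sham values of Ect2 and Prc1 are under background. With these set to background the differences are -0.13 for Ect2 and 0.02 for Prc1. Most mitotic genes thus stood close on the sham arrays, and a small number stood far apart.

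Markers of other cells also differed between the sham arrays. Of 9 B cell markers 7 were at least 2-fold higher on the Cd39-null sham array, and their summed level on the linear scale was 313.1 there against 93.2 on the wild-type sham array, 64.3 on the wild-type ligated and 68.1 on the labelled Cd39-null ligated array. The 9 T and NK cell markers summed to 163.8 against 73.0 on the sham arrays, with 4 at least 2-fold higher, and the 9 fat markers to 2388.0 against 832.9, with 7 at least 2-fold higher. The 10 smooth muscle markers summed to 1056.1 against 2527.3, with 9 at least 2-fold lower, and the 12 endothelial markers to 924.0 against 1769.5, with 7 at least 2-fold lower. Of 6 germinal centre B cell markers, 3 were above and 3 below 0 on the Cd39-null sham array, with Mybl1 (1.56) at least 2-fold higher and 0 at least 2-fold lower. No B cell marker lay under background on the Cd39-null sham array, and 3 of 9 did on the wild-type sham array. The part of these cell types in the difference of Mki67, Bub1, Top2a and Cenpe was not tested.

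Between the ligated arrays every mitotic gene was lower on the labelled Cd39-null array, by small amounts. All 28 mitotic differences were below 0, against 54.2% of all genes, and 0 reached 2-fold lower, against 2.66% of all genes. The mitotic median was -0.52 (range -0.95 for Plk1 to -0.04 for Cdca8), and the median of all genes was -0.03. All 28 also lay below 0 with the arrays quantile normalised again, loess normalised, or with the mean of a gene's probe sets in place of the brightest. The S phase genes lay on both sides, 6 above and 5 below 0 (5 and 6 after quantile or loess normalisation), with a median of 0.01 (range -0.35 for E2f1 to 0.53 for Mcm3). Mcm4 (5.15 and 5.16), Mcm5 (3.83 and 3.87) and Rrm2 (5.52 on both) were almost level on the ligated arrays. The largest mitotic gaps after Plk1 were those of Ccnb2 (7.60 and 6.69), Ect2 (3.69 and 2.86), Cenpf (4.95 and 4.14) and Bub1 (4.98 and 4.21).

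The difference of the ligation differences, Cd39-null minus wild type, combines the sham and ligated gaps and had a median of -0.72 for mitotic genes, 0.17 for S phase genes (range -0.88 for Mcm7 to 1.05 for Rrm1) and 0.04 for all genes. With values at or under background set to background, the mitotic median was -0.69, and the range ran from -2.75 for Mki67, -2.26 for Top2a, -2.09 for Cenpe and -2.03 for Bub1 to -0.01 for Cdca8. The wild-type difference was the larger for 27 of 28 mitotic genes and 4 of 11 S phase genes. After quantile normalisation these counts were 26 and 4, after loess 28 and 4, and with values set to background 28 and 3. The share of all genes for which the wild-type difference was the larger was not computed. Measured from the wild-type sham array instead, 21 mitotic and 3 S phase genes were at least 2-fold higher on the labelled Cd39-null ligated array, against 9.52% of all genes, with medians of 1.35 and 0.89. No array is left over to test any of these differences.

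**Figure D4:**
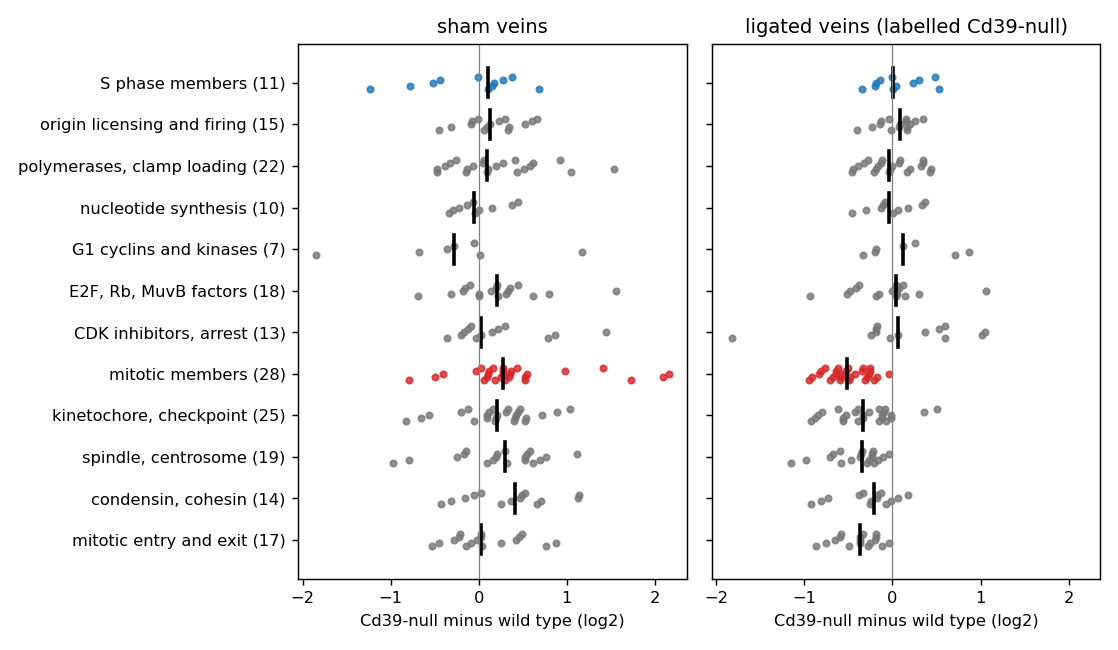
Cd39-null minus wild type log2 differences (horizontal axis) on sham arrays (left) and ligated arrays (right, labelled Cd39-null) for S phase genes (blue), mitotic genes (red) and genes of related pathways (grey), with the number of genes in brackets and black bars at medians. On the right the mitotic, spindle, and mitotic entry and exit genes all lie below 0, and the S phase genes lie around 0.

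Genes of the same pathways outside the list of 45 were also higher after ligation in wild type, more of them in mitosis than in replication. The shares of all genes to set beside these counts are 6.60% in wild type and 10.9% in Cd39-null. Of 15 origin licensing and firing genes, 2 (Dbf4, 1.37, and Gins1, 1.07) were at least 2-fold higher after ligation in wild type and 0 in Cd39-null. Both sham values of Gins1 are under background, and with such values set to background the wild-type count is 1. Of 22 genes of polymerases, clamp loading and chromatin copying the counts were 5 in wild type and 3 in Cd39-null, led by Uhrf1, which reads newly copied DNA for methylation, at 2.31 (under background), 4.97, 3.84 and 5.04. Of 10 nucleotide synthesis genes they were 2 and 2, with Tk1, the thymidine kinase of S phase, at 3.54, 5.77, 3.51 and 5.31. The Cd39-null origin count is below the share of all genes. The other replication counts were not tested against these shares. In wild type 15 of 15 origin, 22 of 22 polymerase and 8 of 10 nucleotide genes were above 0, against 6969 of all 14115 genes. In Cd39-null 15, 20 and 8 were, against 7291 of all genes. On the wild-type sham array 8 of the 15 origin genes were at or under background.

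Mitotic pathways had larger counts in wild type: 14 of 25 kinetochore and checkpoint genes, 14 of 19 spindle and centrosome genes, 6 of 14 condensin and cohesin genes, and 7 of 17 genes of mitotic entry and exit. In Cd39-null the counts were 5, 5, 1 and 1, of which the last pair are below the share of all genes. Many of these genes are dim on the sham arrays, 10 of 25 kinetochore genes being at or under background on the wild-type sham array. With such values set to background the wild-type counts were 10, 12, 4 and 7 and the Cd39-null counts 3, 4, 0 and 1. The wild-type medians were then 0.74, 1.18, 0.46 and 0.79 (1.07, 1.41, 0.68 and 0.96 as deposited), and those of the origin, polymerase and nucleotide lists were 0.30, 0.65 and 0.36 (0.55, 0.70 and 0.36 as deposited).

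Named genes of the mitotic lists varied. Mad2l1, the checkpoint protein that binds CDC20, had ligation differences of 2.23 in wild type and 0.95 in Cd39-null, and Ncaph, a condensin subunit, had 1.97 and 0.59. Dlgap5, a spindle protein whose wild-type sham value is under background, was higher by at least 2.24 in wild type and by 0.58 in Cd39-null. Pttg1, which encodes securin, the inhibitor of separase, went the other way, at 6.10, 5.29, 6.13 and 5.28, lower on the ligated array by 0.81 in wild type and 0.85 in Cd39-null.

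Between the ligated arrays, 54.2% of all genes were lower on the labelled Cd39-null array. Of spindle and centrosome genes 19 of 19 were lower, and of mitotic entry and exit genes 17 of 17, with medians of -0.35 and -0.37. The same counts were obtained after quantile and loess normalisation. Kinetochore and checkpoint genes were lower in 23 of 25 (21 after loess normalisation) and condensin and cohesin genes in 12 of 14. Replication lists had no common side: 6 of 15 origin genes, 13 of 22 polymerase genes and 5 of 10 nucleotide genes were below 0, with medians between -0.04 and 0.08. These replication counts lie on both sides of the share of all genes and were not tested against it. In these mitotic and replication lists only Stmn1, a regulator of microtubule disassembly, was at least 2-fold lower there (-1.15).

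Upstream of both groups, 6 of 7 G1 cyclin and kinase genes were above 0 after ligation in each genotype. Of all 14115 genes, 6969 were above 0 in wild type and 7291 in Cd39-null. Cdk4, the kinase of G1 cyclins, had values of 5.99, 7.55, 5.31 and 7.37, and Cdk6 had 3.96, 4.67, 3.61 and 5.38. Of the 7 genes 2 were at least 2-fold higher in wild type and 4 in Cd39-null, with medians of 0.70 and 1.32, so here the Cd39-null median was the larger. Ccnd1, which encodes cyclin D1, had 6.60, 6.40, 4.75 and 6.07, with the Cd39-null sham array alone at the low end. Of 18 genes for E2F, Rb family and MuvB factors, 3 were at least 2-fold higher in wild type (E2f8, 1.27; E2f7, 1.09; Rbl1, 1.07), against 6.60% of all genes. Only E2f7 stays so when values under background, which E2f8 and Rbl1 have on the wild-type sham array, are set to background. In Cd39-null the count was 2 (Tfdp1, 1.20; E2f4, 1.05), a share close to the 10.9% of all genes. Mybl2, which encodes the B-Myb partner of MuvB, differed by 0.05 and 0.24.

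Markers of infiltrating and resident cells differed between these arrays too. All 9 monocyte and macrophage markers were at least 2-fold higher in wild type and 7 in Cd39-null, and their summed level went from 476.6 to 2210.9 in wild type and from 620.7 to 2098.0 in Cd39-null. Between the ligated arrays 6 of the 9 markers were lower on the labelled Cd39-null array, against 54.2% of all genes. The 6 lower markers were led by Mrc1 (-1.35) and Adgre1 (-1.29), and the 3 higher ones by Cd14 (2.13) and Msr1 (0.94). The median of the 9 was -0.25. The 10 fibroblast markers summed to 2353.9 on the wild-type ligated and 1284.1 on the labelled Cd39-null ligated array, with 10 of 10 lower and a median of -0.99, and the 10 smooth muscle markers to 1899.5 and 713.4, with 10 of 10 lower and a median of -1.30. Platelet markers (8 genes) summed to 568.4 and 2551.1 and neutrophil markers (11 genes) to 1089.7 and 4290.9. Both sums were higher on the labelled Cd39-null array. Granulocyte precursors, which divide in the marrow, had 5 markers with sums of 25.4 to 26.8 on the 4 arrays, and 3 to 5 of the 5 lay at or under background on each array. Of 7 erythroid markers 1, Alas2, was at least 2-fold higher on the labelled Cd39-null ligated array, at 7.34 against 4.86. The part of cell composition in the ligation and genotype differences of the replication and mitosis genes was not tested.

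The only test these arrays allow treats the pair of ligation comparisons as repeats of each other. A limma model with a term for genotype and a term for ligation (1 residual degree of freedom) called 0 of 14115 genes for ligation and 0 for genotype at a Benjamini-Hochberg adjusted p of 0.05; at an unadjusted p under 0.05 there were 2960 genes for ligation and 979 for genotype. Higher after ligation at that unadjusted level were 22 of 28 mitotic and 6 of 11 S phase genes, against 13.2% of all genes. By limma, Tpx2 had a mean ligation difference of 2.14 (SE 0.24), Anln of 2.15 (SE 0.23), Prc1 of 2.04 (SE 0.22) and Mcm3 of 1.59 (SE 0.22), each with an adjusted p of 0.0952, the smallest in the fit. Mki67 had a mean of 1.21 (SE 0.67, limma adjusted p = 0.369), since the model counts a difference between the genotypes' responses as error. For genotype, 1 of the 39 measured genes, Ect2, was lower at an unadjusted limma p under 0.05, against 4.65% of all genes, and its Cd39-null sham value is under background; the smallest limma adjusted p of any gene for genotype was 0.667. An exact permutation of 2 ligated against 2 sham arrays cannot give a two-sided p below 0.333.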

How the data were processed

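Total RNA of the vein was extracted with Trizol, 50 ng was amplified to cDNA, and 3 µg of cDNA was biotinylated for an Affymetrix whole-transcript array, per the labels' protocols. The authors deposited 1 log2 value per probe set and array; the submitters' processing notes name RMA and oligo, without versions. RMA equalises the arrays' distributions at the level of single probes, so a shift in all genes would not show. The deposited gene values were still not fully alike, with medians of the kept genes from 3.91 to 4.09 log2 on the 4 arrays. Of 35556 probe sets 21218 carry 1 symbol, 1881 several and 12457 none. The brightest probe set of each gene was taken as deposited, and 14115 of 18820 genes had a mean at or above the 25th percentile (2.29 log2). Arrays have no read depth; their number limits the precision. limma 3.58.1 (R 4.3.3) fitted genotype and ligation, checked on simulated data, with Benjamini-Hochberg adjustment. A bound ("at least") sets the dimmer value to the olfactory receptor 95th percentile of its array. The genes, pathway lists and marker lists were chosen with earlier results of these data known. Besides the members and Entpd1, up to 4 genes per list with the largest differences could be named; Mybl2 was named for its role, after its values were seen. Alternatives were other normalisations, probe set rules, filters, folds and list members.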

Additional observations from a re-analysis of the deposited data

Results flagged for a closer look

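Among the listed replication, mitosis and cell cycle genes, 5 had ligation differences of opposite sign in the genotypes with at least 1 of them past 2-fold. Each rests on 1 array per group, and the gap between the differences was not tested. The share of all genes that meet this rule was not computed, so the count is a description only. For Mki67, Fbxo5 and Ccnd1 the smaller difference was under 0.24 log2 in size, the median standard deviation of the additive fit. For Mki67, Cd39-null minus wild type was -2.75 on the log2 scale, from 2.59 in wild type and -0.16 in Cd39-null. Cdkn2c, which encodes the CDK4 and CDK6 inhibitor p18, had the widest gap of the 5, -3.26 (1.90 and -1.36), with values of 4.19 on the wild-type sham, 6.09 on the wild-type ligated, 5.63 on the Cd39-null sham and 4.27 on the labelled Cd39-null ligated array. Mybl1, which encodes A-Myb and is also among the germinal centre B cell markers, had a gap of -2.08 (0.71 and -1.37). Its wild-type sham value is under background, and with that value set to background the gap is -1.84. Fbxo5, which encodes the anaphase-promoting complex inhibitor EMI1, had a gap of -1.35 (1.14 and -0.21). Of these 5, Ccnd1 was the one that was higher after ligation in Cd39-null and not in wild type, with a gap of 1.52 (-0.20 and 1.32).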

How the results depend on the processing

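Of 137 recomputed values, 129 stayed on the same side or within the stated margin, which was 1.5 times for counts and 0.24 log2, the median standard deviation of the additive fit, for medians. The 8 others were the following. At 1.5-fold, 24 genes in place of 13 were higher after ligation in Cd39-null, 3 in place of 1 were lower on the Cd39-null sham array, and 13 in place of 0 were lower on the labelled Cd39-null ligated array; quantile normalisation gave 1 there, Ccnb2. With wild-type sham as the reference, an alternative chosen after seeing the data, 24 genes were higher on the labelled Cd39-null ligated array, the mitotic median was 1.35 in place of 0.85, and the S phase minus mitotic gap was -0.46 in place of -0.12. Without E2f1, Ccne1 and Ccne2 that gap was 0.15, which turns its direction. Scaling moved the share of higher among all genes 2-fold apart: from 65.3% to 51.4% (quantile) and 53.9% (loess) for ligation in Cd39-null, and from 45.5% to 58.4% (loess) for genotype in sham veins. The additive fit called 0 genes under each of its 6 alternatives. No gene of the list was dim enough to be left out by the filter on dim members. The values under that filter therefore repeat the main ones, and the count of 129 includes them though they could not differ. The same holds for the S phase minus mitotic gaps with the arrays centred. It also holds for the S phase medians with the mean over probe sets, since only Pcna has a pair there, with identical values. No paired analysis was possible because each group has 1 array. Leaving out a replicate was not possible for the same reason. Background limits sham values of 11 of the 39 measured genes and of many genes of the related lists, whose differences are approximate.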

Other observations

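Genes that hold the cell cycle back did not share a direction. Of 13 CDK inhibitor and arrest genes, 3 were at least 2-fold higher after ligation in wild type (6.60% of all genes were) and 3 in Cd39-null (10.9% of all genes). Cdkn1a, which encodes p21, went from 4.61 log2 on the sham array to 5.88 on the ligated array in wild type, and from 4.83 to 6.49 on the arrays labelled Cd39-null, so both ligated arrays were higher. Cdkn1b, which encodes p27, was lower after ligation by 1.04 in wild type and 0.82 in Cd39-null. Tob1, an anti-proliferative factor, had a ligation difference of -0.69 in wild type and -1.74 in Cd39-null.

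Among members with more than 1 probe set, the other probe sets of Kif11, Prc1 and Top2a gave little signal, unlike those of Pcna and Pbk. The other probe sets of Kif11, Prc1 and Top2a had means of 1.53 to 2.24 log2 over the 4 arrays, under the olfactory receptor background, and differed by 0.12 to 0.30 between the wild-type arrays. The other probe set of Pbk, with a mean of 2.92, had a ligation difference of -0.64 in wild type, opposite to the 1.72 of the probe set used. On the wild-type sham array it read 3.38, above background, where the probe set used read 2.52, under background.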
